A study of Mus musculus with 28 samples.

Results

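The knockdown of KAP1 was compared between mouse embryonic stem (ES) cells that lack all 3 active DNA methyltransferases and wild-type ES cells, gene by gene. The quantity examined is an interaction, the change caused by a Kap1 hairpin in the mutant line minus the change it caused in the wild-type line. It rests on 12 RNA-seq libraries, chosen from the 28 samples of the series as all RNA libraries of the 2 lines, with 3 libraries in each of 4 groups. The groups were wild-type cells (WT, line J1, strain 129S4/SvJae) with an empty vector (shEmpty) or with a hairpin against Kap1 (shKap1), and cells with Dnmt1, Dnmt3a and Dnmt3b knocked out (DNMT TKO) with the same vectors. All 4 groups shared the serum-free N2B27 medium with LIF and 2i on gelatin, the lentiviral pLKO.puro vector, selection with 4 µg/mL puromycin and collection after 5 days. Each genotype was 1 cell line, so a difference between the lines cannot be told apart from a difference between genotypes. The libraries were stranded poly(A)-selected mRNA sequenced as single reads of 100 bases, and the 3 libraries of a group came from separate experiments.

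KAP1, encoded by Trim28, is a co-repressor that KRAB zinc finger proteins (KZFPs) carry to specific DNA sequences. There it recruits the H3K9 methyltransferase SETDB1, and the resulting H3K9me3 goes along with DNA methylation at many endogenous retroviruses (ERVs) and at imprinting control regions. DNMT1 copies DNA methylation at replication and DNMT3A and DNMT3B set it on new sites, so cells without the 3 enzymes keep almost none. ZFP57, the KZFP of imprinted loci, recognizes TGCCGC when its CpG is methylated. In ES cells KAP1 is known for silencing ERVs of the IAP and ETn families and for keeping the 2-cell programme low.

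Sequences are given for the loci that the comparison turned on, all read from the mm9 genome and written 5′ to 3′ on the stated strand. The first 3 are the 250 bases before the annotated start of genes that stand for 3 shapes of the difference: Dcdc2a (rise in WT alone from a lower starting level), Rassf4 (opposite changes) and Brdt (rise in DNMT TKO alone). CpG sites are in capitals.

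Dcdc2a, chr13:25147623-25147872, + strand: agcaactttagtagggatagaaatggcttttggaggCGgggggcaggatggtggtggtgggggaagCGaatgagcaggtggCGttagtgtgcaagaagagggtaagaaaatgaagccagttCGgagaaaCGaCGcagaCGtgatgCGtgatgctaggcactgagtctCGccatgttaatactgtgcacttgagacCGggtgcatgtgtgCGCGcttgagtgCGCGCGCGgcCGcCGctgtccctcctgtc

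Rassf4, chr6:116623855-116624104, - strand: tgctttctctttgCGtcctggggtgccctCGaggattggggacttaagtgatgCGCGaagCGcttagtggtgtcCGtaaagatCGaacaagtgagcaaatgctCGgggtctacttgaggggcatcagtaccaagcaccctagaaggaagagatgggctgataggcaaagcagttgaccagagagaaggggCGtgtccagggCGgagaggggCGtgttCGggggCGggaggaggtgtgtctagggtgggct

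Brdt, chr5:107759928-107760177, + strand: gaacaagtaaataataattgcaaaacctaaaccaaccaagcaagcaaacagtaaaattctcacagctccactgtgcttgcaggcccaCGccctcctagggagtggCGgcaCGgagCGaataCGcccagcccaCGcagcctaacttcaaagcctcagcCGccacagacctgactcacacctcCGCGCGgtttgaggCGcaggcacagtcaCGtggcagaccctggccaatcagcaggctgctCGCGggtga

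The stretch before Dcdc2a holds 18 CpG sites, that of Rassf4 13 and that of Brdt 14. Ctsh, which rose in WT alone, is preceded by an IAP provirus on the opposite strand, with an IAPEY3-int body at chr9:89938358-89941263 between a pair of IAPLTR2b long terminal repeats. The repeat nearer to the gene ends 7397 bases before the annotated start, and a deposited KAP1 region covers it. The first 300 bases of that repeat, the 5′ end of the provirus, are shown with their 13 CpG sites in capitals.

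IAPLTR2b, chr9:89941294-89941593, - strand: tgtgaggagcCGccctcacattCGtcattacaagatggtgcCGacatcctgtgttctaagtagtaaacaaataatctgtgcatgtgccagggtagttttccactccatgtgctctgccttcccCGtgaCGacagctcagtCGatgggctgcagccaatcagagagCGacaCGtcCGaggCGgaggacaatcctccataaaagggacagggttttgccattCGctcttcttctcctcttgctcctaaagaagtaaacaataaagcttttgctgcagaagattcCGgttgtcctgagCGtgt

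The last 3 windows lie in deposited KAP1 regions at imprinted loci, with the ZFP57 motif TGCCGC in capitals. They belong to the region upstream of Meg3, where the imprinting control of the Dlk1-Dio3 cluster lies, to the start of Airn and to the shared start of Peg10 and Sgce.

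Meg3, chr12:110766532-110766671, + strand: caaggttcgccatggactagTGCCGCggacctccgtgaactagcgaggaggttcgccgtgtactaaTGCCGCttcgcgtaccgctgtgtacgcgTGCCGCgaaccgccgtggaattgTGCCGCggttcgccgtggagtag

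Airn, chr17:12934618-12934757, + strand: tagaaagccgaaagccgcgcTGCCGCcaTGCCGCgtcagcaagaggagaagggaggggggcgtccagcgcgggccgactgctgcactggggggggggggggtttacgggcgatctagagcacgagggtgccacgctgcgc

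Peg10, chr6:4697209-4697348, + strand: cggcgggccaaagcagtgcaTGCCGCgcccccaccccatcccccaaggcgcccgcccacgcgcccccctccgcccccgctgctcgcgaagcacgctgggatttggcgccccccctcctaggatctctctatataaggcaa

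The labels were checked first. Trim28, the targeted gene, stood at 1991, 1639 and 1626 CPM (reads per 1e6 reads on genes, with TMM scaling of libraries) in WT shEmpty and at 190.0, 156 and 149 CPM in WT shKap1. In DNMT TKO it went from 2086, 1819 and 1701 CPM to 327, 448 and 506 CPM. The hairpin groups did not overlap with their controls, but the knockdown left 9.42% of Trim28 mRNA in WT and 22.9% in DNMT TKO, an interaction of 1.28 ± 0.21 on the log2 scale (SE, adjusted p = 0.000802). Knockdown in the mutant was thus shallower, and this difference in depth moves with every comparison of the 2 lines. RNA of the knocked-out enzymes was lower but still counted, with Dnmt1 at 513, 479 and 478 CPM in WT shEmpty against 157, 156 and 156 CPM in DNMT TKO shEmpty. Whether these reads lie outside the deleted exons was not tested, since the labels do not give the alleles. Libraries held 18108431 to 29257911 reads on genes, correlated at 0.988 to 0.995 within groups, and the first principal component (48.4% of the variance) separated the lines while the second (39.6%) separated the hairpins. The 8 markers of ES cells checked were at or above 11.9 CPM in every library, and of these only Zfp42 was called for its interaction.

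The knockdown effect differed between the lines for 1450 of 20321 tested genes (7.14%). A call needed an adjusted p below 0.05 in edgeR and at least a 2-fold difference between the 2 knockdown effects. The effect was higher in DNMT TKO for 946 genes, which is 4.66% of those tested, and lower for 504 genes, 2.48%. For 555 genes the knockdown effects differed by 4-fold or more and for 199 by 8-fold or more. The median interaction over all tested genes was 0.04, with quartiles of -0.28 and 0.42.

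**Figure D1:**
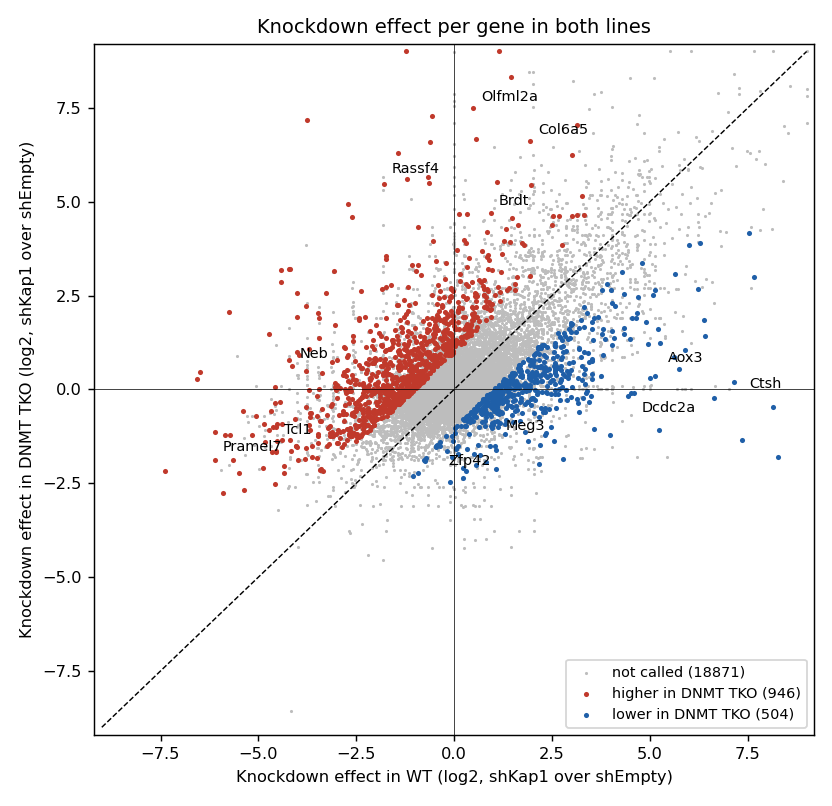
Log2 knockdown change in DNMT TKO (vertical axis) against that in WT (horizontal axis) for each tested gene, 3 libraries a group, with genes whose interaction was called higher or lower in colour and axes that stop at 9 in either direction. Called genes lie away from the diagonal, with 946 above it and 504 below.

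Across the tested genes the 2 knockdown effects, which share no libraries, correlated with r = 0.58 (Spearman rho 0.52), a description over genes that are not independent. The 2200 genes that rose in WT (10.8% of those tested) had a median log2 change of 2.16 there and of 1.36 in DNMT TKO. The 1329 genes that fell in WT (6.54%) had medians of -1.69 in WT and -0.54 in DNMT TKO. Knockdown in DNMT TKO raised 2043 genes (10.1%) and lowered 491 (2.42%), so that 17.4% of tested genes changed in WT and 12.5% in DNMT TKO. Without the knockdown, 8.23% of tested genes were higher and 8.05% lower in DNMT TKO than in WT, 16.3% in all.

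The calls within each line sort the differing genes into shapes, where "alone" means that the change passed the threshold in one line and not in the other. Among the 946 higher genes, 427 (45.1%) fell in WT alone, with medians of -1.79 in WT and -0.04 in DNMT TKO. A further 258 (27.3%) rose in DNMT TKO alone, 80 fell in both lines but less in DNMT TKO, 41 fell in WT and rose in DNMT TKO, and 31 rose in both but more in DNMT TKO. Among the 504 lower genes, 304 (60.3%) rose in WT alone, with medians of 1.93 and 0.11. Another 72 rose in both lines but less in DNMT TKO, 33 fell in DNMT TKO alone, 4 rose in WT and fell in DNMT TKO, and 1 fell in both. The knockdown changed neither line past the threshold for 109 higher and 90 lower genes, although their difference was called. Many genes also differed between the lines without the knockdown, in the shEmpty libraries that the interaction subtracts. Of the 258 rises in DNMT TKO alone, 146 started over 2-fold lower and 19 over 2-fold higher in DNMT TKO (median basal difference -1.27). Of the 304 rises in WT alone, 152 started over 2-fold higher and 15 over 2-fold lower in DNMT TKO than in WT (median 1.01).

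**Figure D2:**
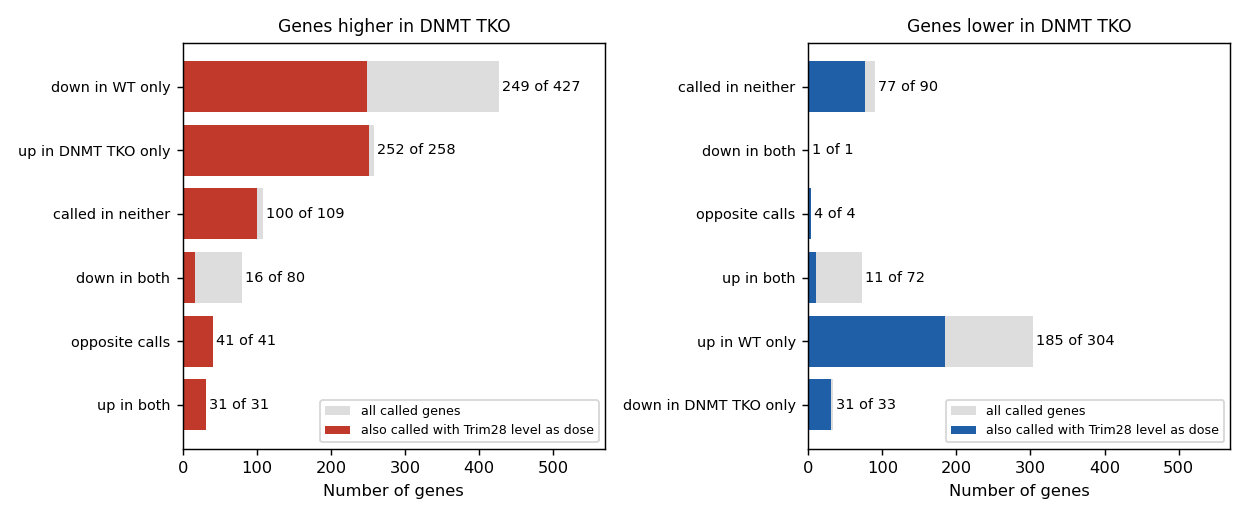
Number of genes in each shape of the interaction, with the coloured part of each bar giving the genes that were also called when the Trim28 level of each library replaced the hairpin label. Falls in WT alone (249 of 427 kept) and rises in WT alone (185 of 304 kept) are the most frequent shapes, while falls in both lines that were smaller in DNMT TKO (16 of 80) and rises in both that were smaller there (11 of 72) are kept least, and rises in both that were larger there are all kept (31 of 31).

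Because the knockdown was shallower in DNMT TKO, the comparison was repeated with the Trim28 level of each library as a dose, with a slope for each line. Of the higher genes 689 of 946 were called again, and of the lower genes 309 of 504, while 9 genes changed sign. By its construction the dose scales the change in DNMT TKO up to the larger Trim28 loss of WT, so it enlarges a rise in DNMT TKO and shrinks a difference that comes from a smaller change there, and which shapes were kept follows in large part from that. Rises in DNMT TKO alone were kept in 252 of 258 cases, and the 41 genes with opposite changes were all kept. Of the genes that fell in both lines 16 of 80 were kept, and of those that rose in both but less in DNMT TKO 11 of 72, whereas all 31 genes that rose in both and more in DNMT TKO were kept. Genes named below that lost the call with the dose are marked as such, apart from the stretches of neighbouring genes, for which the dose was not tabulated.

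Ctsh, which encodes the lysosomal protease cathepsin H, had the largest loss of induction among genes with at least 300 reads. It was at 0.167, 0.285 and 0.318 CPM in WT shEmpty and at 57.8, 84.2 and 89.0 CPM in WT shKap1. In DNMT TKO it was at 0.203, 0.518 and 0.308 CPM without and at 0.240, 0.282 and 0.260 CPM with the knockdown, so only the WT shKap1 libraries lay above 1 CPM. Its interaction was -8.60 ± 0.63 (SE, adjusted p = 5.79e-08).

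Other genes of this shape were already higher in DNMT TKO than in WT before the knockdown. Nlrp9b, a sensor of the NLR family, was at 1.22, 0.996 and 0.814 CPM in WT shEmpty, rose to 58.0, 42.7 and 44.4 CPM there, and was at 21.4, 21.1 and 22.9 CPM and then 41.7, 38.6 and 39.3 CPM in DNMT TKO (interaction -4.74 ± 0.23, adjusted p = 2.9e-10). Dcdc2a, a microtubule-binding doublecortin protein, went from 0.389, 0.569 and 0.354 CPM to 11.4, 10.8 and 10.2 CPM in WT and was at 14.6, 16.6 and 16.9 CPM and then 15.1, 14.1 and 16.1 CPM in DNMT TKO (-4.68 ± 0.21, adjusted p = 2.37e-10). In DNMT TKO the 2 groups of Dcdc2a overlapped, and all 6 of these libraries lay above the WT shKap1 libraries.

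Aox3, an aldehyde oxidase, rose in both lines, from 0.944, 1.03 and 0.637 CPM to 32.9, 33.2 and 32.7 CPM in WT and from 18.4, 21.4 and 21.0 CPM to 49.6, 44.8 and 48.1 CPM in DNMT TKO (-4.02 ± 0.15, adjusted p = 3.71e-11). Gm14443 rose in WT from 0.444, 0.178 and 0.566 CPM to 8.44, 8.57 and 8.74 CPM and was at 40.1, 36.7 and 38.1 CPM and 32.8, 36.7 and 32.2 CPM in DNMT TKO (-4.62 ± 0.22). Both had a level in DNMT TKO shEmpty more than 10 times that in WT shEmpty, as did AI593442 (basal difference 5.04 and interaction -3.76). Since the interaction and the basal difference between the lines use the same shEmpty libraries, the 2 values are given side by side only.

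Several lower genes rested on few reads in WT shEmpty. Khdc1a, an oocyte gene of the KH domain family, had no read there, was at 0.681, 0.563 and 0.320 CPM in WT shKap1 (at least 13-fold higher if the group without reads is set to 3 reads in sum) and at 1.52, 3.49 and 3.32 CPM and 1.39, 3.34 and 2.41 CPM in DNMT TKO (-6.88 ± 1.27). Cyp4a12b, a fatty acid hydroxylase, also had none, reached 0.839, 1.39 and 0.960 CPM in WT shKap1 (at least 26.9-fold higher) and went from 1.02, 0.863 and 0.848 CPM to 8.55, 5.5 and 7.64 CPM in DNMT TKO (-4.67 ± 1.21), a call lost with the Trim28 dose (adjusted p = 0.192). Crygc, a lens crystallin, had 3 reads in WT shEmpty and 165 in WT shKap1, a ratio of 67.1 with a counting interval of 22.6 to 328.9 (interaction -4.83 ± 0.77, or -5.58 without WT shEmpty 2). With 0 to 3 reads in a group, the fitted interaction also depends on the prior count of the fit.

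AA792892 is the reverse case, since its RNA was nearly absent from DNMT TKO, with 3 reads in shEmpty and 1 in shKap1, a ratio of 0.36 with a counting interval of 0.00686 to 4.48. In WT it went from 0.666, 1.28 and 1.59 CPM to 18.8, 19.8 and 20.2 CPM (interaction -5.19 ± 1.51, adjusted p = 0.0225). The call was lost without DNMT TKO shEmpty 1 (-4.27, adjusted p = 0.212) and without DNMT TKO shEmpty 2 (-5.29, 0.0614), and the value was -7.10 without DNMT TKO shKap1 3.

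**Figure D3:**
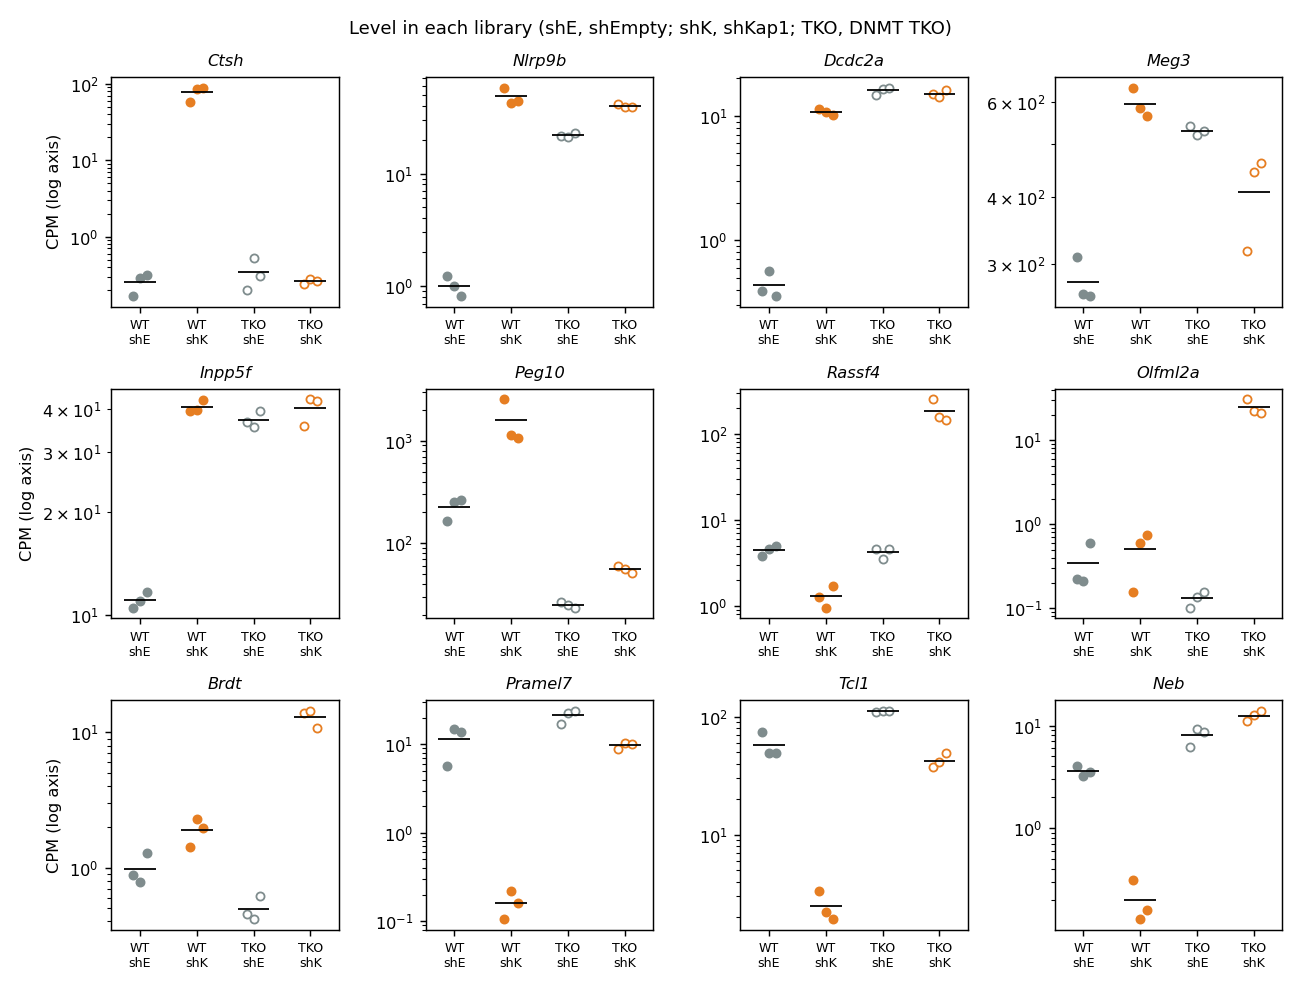
CPM of 12 named genes in each of the 12 libraries on a log axis, by group, with 1 point per library and a line at the group mean. The WT shKap1 libraries of Ctsh (57.8 to 89.0 CPM) stand above the other 9, while for Nlrp9b and Dcdc2a both DNMT TKO groups lie well above WT shEmpty.

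Among the most read genes that rose in WT alone was Gm13230, with 64.1, 52.1 and 51.4 CPM and then 277, 222 and 239.9 CPM in WT and 166, 165 and 166 CPM and then 254, 254 and 242 CPM in DNMT TKO (-1.55 ± 0.11, adjusted p = 3.78e-08). Gm13151 behaved likewise, with changes of 1.28 in WT and 0.27 in DNMT TKO (-1.01 ± 0.20). Its interaction passed under 2-fold without DNMT TKO shEmpty 1 (-0.93), WT shEmpty 2 (-0.92), WT shEmpty 3 (-0.90) or WT shKap1 1 (-0.97), and it was not called with the Trim28 dose (-0.80).

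Rpl39l, a ribosomal protein paralog known from testis, rose in both lines but less in DNMT TKO, with 12.1, 10.9 and 12.3 CPM and 82.2, 80.3 and 79.6 CPM in WT and 76.7, 74.6 and 75.0 CPM and 169, 139 and 147 CPM in DNMT TKO (-1.78 ± 0.12, adjusted p = 1.58e-08). The 4 groups did not overlap, with WT shKap1 and DNMT TKO shEmpty close together. BC016423 showed the same order, with log2 changes of 3.19 in WT and 1.07 in DNMT TKO (-2.12 ± 0.15).

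The opposite pattern, induction by the knockdown in DNMT TKO alone, was led by RNAs that were close to absent elsewhere. D930020E02Rik was at 7.01, 11.3 and 9.64 CPM in DNMT TKO shKap1 and had no read in DNMT TKO shEmpty, at least 233-fold lower when set to 3 reads in sum. It was at 0.0555, 0.142 and 0.248 CPM in WT shEmpty and 0, 0.173 and 0 CPM in WT shKap1 (interaction 12.00 ± 1.49, adjusted p = 3.92e-05). Without WT shKap1 2, the library of that group with reads, the value was 15.7. A RodERV21-int fragment on the same strand inside this gene had 87 reads in DNMT TKO shKap1 and 2 in the other 9 libraries, but its own interaction was not called (7.69, adjusted p = 0.162).

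Gm14047 had no read in DNMT TKO shEmpty and was at 16.8, 7.34 and 7.86 CPM in DNMT TKO shKap1, at least 258-fold higher by the same count. In WT it had 2 reads in shEmpty and 4 in shKap1, a ratio of 2.44 with a counting interval of 0.350 to 27 (interaction 9.83 ± 2.76, adjusted p = 0.0227). The call was lost without WT shEmpty 1 (9.36, adjusted p = 0.129) or WT shEmpty 3 (9.56, 0.108). 1700018A04Rik was at 20.3, 17.9 and 18.1 CPM in DNMT TKO shKap1 against 0, 0.0345 and 0.116 CPM in DNMT TKO shEmpty, and in WT it had 2 reads in shEmpty and 5 in shKap1, a ratio of 3.05 with an interval of 0.500 to 32.0. Its interaction (6.87 ± 1.81, adjusted p = 0.0132) lost the call without WT shEmpty 3 (4.30, adjusted p = 0.961) and with the Trim28 dose (adjusted p = 0.111), and was 7.46 without WT shEmpty 2 and 8.06 without DNMT TKO shEmpty 3.

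Genes with more reads had smaller errors. Olfml2a, an extracellular olfactomedin-like protein, was at 0.222, 0.213 and 0.602 CPM and 0.157, 0.606 and 0.746 CPM in WT and went from 0.102, 0.138 and 0.154 CPM to 30.9, 22.5 and 21.4 CPM in DNMT TKO (7.00 ± 0.70, adjusted p = 1.96e-06, and 6.28 without WT shEmpty 3). Prex2, an activator of the GTPase Rac, was at 134, 152 and 151 CPM and 119, 142 and 149 CPM in WT, which overlapped, and rose in DNMT TKO from 13.7, 25.9 and 26.6 CPM to 96.9, 157 and 117 CPM (2.57 ± 0.30, adjusted p = 9.86e-05). The DNMT TKO shKap1 libraries overlapped with those of WT, and the DNMT TKO shEmpty libraries lay below all others.

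Abundant genes of this shape were Ifitm3, an antiviral membrane protein, and Sdc4, a heparan sulfate proteoglycan. Ifitm3 was at 125, 109.9 and 109.8 CPM and 95.5, 94.4 and 92.1 CPM in WT and at 73.0, 94.2 and 84.5 CPM and 200.3, 170.1 and 203 CPM in DNMT TKO (1.48 ± 0.13, adjusted p = 6.56e-07). For Sdc4 the log2 changes were 0.17 in WT and 1.39 in DNMT TKO (1.22 ± 0.17).

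Col6a5, a collagen VI chain, rose in both lines and more in DNMT TKO. It went from 5.22, 7.93 and 6.37 CPM to 23.5, 25.5 and 26.7 CPM in WT and from 0.863, 0.483 and 0.733 CPM to 72.8, 65.5 and 59.9 CPM in DNMT TKO (4.66 ± 0.29, adjusted p = 1.22e-08). The mutant started lower and ended higher, with no overlap between the 4 groups, and its neighbours Col6a6 and Col6a4 were called higher as well.

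Rassf4, a protein with a Ras association domain, changed in opposite directions. It was at 3.83, 4.55 and 4.92 CPM in WT shEmpty and 1.26, 0.953 and 1.71 CPM in WT shKap1, a fall, and at 4.57, 3.49 and 4.59 CPM and 252, 158 and 146 CPM in DNMT TKO, a rise (7.27 ± 0.37, adjusted p = 2.85e-08). The 2 shEmpty groups overlapped and the 2 shKap1 groups were the lowest and the highest of the 4 groups.

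Crhr2, a receptor for corticotropin-releasing hormone peptides, went from 2.83, 3.24 and 3.68 CPM to 0.157, 0.303 and 0.267 CPM in WT and from 2.29, 2.52 and 2.66 CPM to 5.19, 5.46 and 5.16 CPM in DNMT TKO (4.78 ± 0.30, adjusted p = 9.54e-09). 1190002H23Rik fell in WT from 10.00, 7.36 and 8.99 CPM to 1.42, 0.736 and 1.01 CPM and rose in DNMT TKO from 0.102, 0.0691 and 0.0771 CPM to 0.769, 0.847 and 0.668 CPM (6.21 ± 0.52). Sh3tc2, an endosomal adaptor, fell in WT (-1.21) and rose in DNMT TKO (5.61), with an interaction of 6.81 ± 0.69 (7.46 without DNMT TKO shEmpty 3).

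The most read genes with opposite changes included Serpine2, an inhibitor of extracellular serine proteases, and Dab2, an endocytic adaptor of primitive endoderm. Serpine2 was at 38.1, 31.4 and 32.0 CPM and 17.5, 10.4 and 10.4 CPM in WT and at 16.8, 12.8 and 13 CPM and 33.0, 23.4 and 28.5 CPM in DNMT TKO (2.41 ± 0.26, adjusted p = 1e-05). Gm514 had log2 changes of -1.41 in WT and 1.05 in DNMT TKO (2.46 ± 0.46). In the reverse direction, Creg2, a secreted glycoprotein, rose in WT from 0.0555, 0.107 and 0.106 CPM to 0.367, 0.736 and 0.586 CPM and fell in DNMT TKO from 1.68, 3.11 and 3.08 CPM to 1.01, 0.847 and 1.19 CPM (-3.91 ± 0.55, adjusted p = 7.25e-05).

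Falls seen in WT alone included genes of high expression. Spp1, the secreted phosphoprotein osteopontin, was at 1319.8, 1491 and 1505 CPM in WT shEmpty and 562, 560.0 and 588 CPM in WT shKap1, and at 710.4, 784 and 809 CPM and 805, 999 and 917 CPM in DNMT TKO (1.58 ± 0.10, adjusted p = 1.34e-08). Myst4, a histone acetyltransferase now named Kat6b, was at 439, 476 and 487 CPM and 185, 177 and 185 CPM in WT and at 459, 450.1 and 445 CPM and 342, 383 and 369 CPM in DNMT TKO (1.05 ± 0.07, adjusted p = 2.21e-08). The WT shKap1 libraries lay below the other 9 for both genes.

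For Lamc1, the laminin gamma 1 chain, the log2 changes were -1.81 in WT and -0.72 in DNMT TKO (1.08 ± 0.16), a call lost with the Trim28 dose (adjusted p = 0.0813). Single omissions took Myst4 and Lamc1 to just under 2-fold. These were, for Myst4, DNMT TKO shKap1 2 (0.97) or 3 (0.99) and WT shKap1 2 (0.99), and for Lamc1, DNMT TKO shKap1 2 (0.94) or 3 (0.94) and WT shKap1 1 (0.99). With the dose, Myst4 stood at 0.85, under 2-fold.

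Neb, the giant sarcomere protein nebulin, was nearly lost in WT. It went from 4.05, 3.2 and 3.5 CPM to 0.315, 0.130 and 0.160 CPM in WT and was at 6.14, 9.25 and 8.71 CPM and 11, 12.6 and 13.9 CPM in DNMT TKO (4.77 ± 0.35, adjusted p = 5.8e-08). Cobl, an actin nucleator, fell in both lines, from 328, 352 and 363 CPM to 26.8, 42.7 and 43.3 CPM in WT and from 438, 403 and 403 CPM to 115, 174 and 168 CPM in DNMT TKO (1.76 ± 0.23, adjusted p = 0.000209). Inpp5d, the phosphatase SHIP1, showed the same shape (-2.24 in WT and -1.13 in DNMT TKO, interaction 1.1 ± 0.18). Inpp5d passed under 2-fold without DNMT TKO shEmpty 1 (0.98) or WT shKap1 2 (0.95) or 3 (0.97). Cobl and Inpp5d were not called with the Trim28 dose (adjusted p = 0.178 and 0.109).

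Falls in DNMT TKO alone were rare. Fstl1, a secreted glycoprotein of the BMP pathway, was at 126, 166 and 162 CPM and 108, 106 and 113 CPM in WT and at 38.3, 40.7 and 41.3 CPM and 14.5, 14.1 and 13.2 CPM in DNMT TKO (-1.05 ± 0.12, adjusted p = 8.16e-06). Arrdc3, an arrestin family adaptor, had log2 changes of -0.36 and -1.39 (-1.03 ± 0.12). Fstl1 was under 2-fold without WT shEmpty 1 (-0.94), and Arrdc3 without DNMT TKO shKap1 1 (-0.96), WT shEmpty 2 (-0.99) or WT shEmpty 3 (-0.99).

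Some abundant genes passed the threshold in neither line yet differed between them. Ldha, the lactate dehydrogenase A subunit, was at 288, 365 and 376 CPM and 499, 476 and 486 CPM in WT and at 608, 551 and 558 CPM and 349.6, 389.9 and 465 CPM in DNMT TKO (-1.02 ± 0.14, adjusted p = 9.51e-05). Klhl22, a substrate adaptor of a cullin ubiquitin ligase, had log2 changes of 0.86 and -0.17 (-1.03 ± 0.15). Ldha was under 2-fold without DNMT TKO shKap1 1 (-0.92) or WT shEmpty 1 (-0.90), and Klhl22 without DNMT TKO shEmpty 2 (-0.98), WT shEmpty 2 (-0.94) or WT shEmpty 3 (-0.95).

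Imprinted genes, which are expressed from one parental copy under control of differentially methylated regions, were examined in 4 lists. The counts of each list are read against the 4.66% of all tested genes called higher and the 2.48% called lower. These lists and all later ones were chosen with earlier results of these data known. Their shares are thus a description and no test of enrichment. Of 6 tested genes of the Dlk1-Dio3 cluster, 3 were lower (50.0%) and 1 was higher (16.7%), with a median interaction of -1.30 against 0.04 over all genes. Of 18 genes expressed from the paternal copy, 5 were lower (27.8%) and none higher (median -0.48). Of 11 genes in the Igf2-H19 and Kcnq1 clusters, 1 was higher and 1 lower (9.09% each, median 0.02), and of 26 other imprinted genes, 1 was higher (3.85%) and 4 were lower (15.4%, median -0.10). Many of these calls were lost with the Trim28 dose, as given below, namely those of Peg10, Sgce, Magel2, Airn, Asb4, Pon3, Osbpl5 and Dio3. Peg10 and Sgce also share a start region, so the shares count neighbouring genes of the same locus. In bulk RNA, fewer expressing cells and less RNA per cell cannot be told apart.

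The 3 lower genes of the Dlk1-Dio3 cluster were the noncoding RNAs of its maternal copy. Meg3 was at 309, 264 and 261 CPM and 638, 584 and 565 CPM in WT and at 540.0, 521 and 529 CPM and 316, 444 and 463 CPM in DNMT TKO (-1.48 ± 0.16, adjusted p = 1.47e-05). The WT shKap1 libraries were the highest of the 12 and the WT shEmpty libraries the lowest. Rian, a host of small nucleolar RNAs further along the cluster, was at 441, 352 and 354 CPM and 798, 709.5 and 719 CPM in WT and at 665, 630.2 and 641 CPM and 353, 495 and 521 CPM in DNMT TKO (-1.46 ± 0.17, adjusted p = 3.6e-05). Mirg, a host of microRNAs in the same cluster, had an interaction of -1.17.

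Dio3, an enzyme that inactivates thyroid hormone at the far end of the cluster, fell in both lines, from 5.00, 7.26 and 7.01 CPM to 1.36, 0.779 and 0.640 CPM in WT and from 11.2, 12.2 and 12.3 CPM to 4.71, 3.72 and 4.52 CPM in DNMT TKO (1.35 ± 0.28, adjusted p = 0.00221). It was not called with the Trim28 dose (adjusted p = 0.397). The KAP1 region printed for Meg3 spans chr12:110764736-110767160, upstream of the gene. It holds 8 copies of TGCCGC on either strand and 90 CpG sites in 2425 bases.

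Peg10 and Sgce share one start region on chromosome 6, over which a KAP1 region of 2949 bases with 175 CpG sites lies. Peg10, a retrotransposon-derived gene needed in placenta, went from 166, 255 and 264 CPM to 2541, 1134 and 1051 CPM in WT and from 27, 25.0 and 23.6 CPM to 60.7, 56.2 and 52.0 CPM in DNMT TKO (-1.62 ± 0.44, adjusted p = 0.0260). Sgce, which encodes epsilon-sarcoglycan, had log2 changes of 2.10 and 0.47 (-1.63 ± 0.42). Asb4, a suppressor of cytokine signalling box protein further along the cluster, went from 1.83, 1.03 and 1.27 CPM to 11.1, 8.36 and 7.41 CPM in WT and was at 0.305, 0.345 and 0.308 CPM and 0.528, 0.470 and 0.408 CPM in DNMT TKO (-2.20 ± 0.44).

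For these genes the WT libraries were above all DNMT TKO libraries, with or without the hairpin. The Peg10 call was lost without WT shEmpty 1 (-1.44, adjusted p = 0.0538), without DNMT TKO shEmpty 2 (-1.63, 0.0524), with limma-voom (adjusted p = 0.0511) and in the fit with the replicate block (adjusted p = 0.0868). The Sgce call was lost without DNMT TKO shEmpty 3 (-1.41, adjusted p = 0.0596). With the Trim28 dose none of the 3 was called (adjusted p = 0.386 for Peg10, 0.164 for Sgce and 0.117 for Asb4). Pon3, a paraoxonase of the same region, had an interaction of -1.28 ± 0.37, lost without DNMT TKO shEmpty 2 (adjusted p = 0.0587) or 3 (0.0592), without WT shKap1 2 (0.0519) and with the dose (adjusted p = 0.0701).

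Inpp5f encodes a phosphoinositide phosphatase and has an imprinted isoform, which counts per gene do not separate. The paper lists an imprinting control region named Inpp5f_v2, which lies downstream of the annotated start examined here. The values are thus not read as a response of the imprinted isoform. Inpp5f went from 10.5, 11 and 11.7 CPM to 39.3, 39.7 and 42.4 CPM in WT. In DNMT TKO the gene was at 36.5, 35.4 and 39.5 CPM and 35.7, 42.7 and 42.1 CPM. The 9 libraries other than WT shEmpty thus overlapped (-1.75 ± 0.13, adjusted p = 3.63e-08). An IAPEz provirus with IAPLTR1 repeats lies 1267 bases before its start on the opposite strand. That integrant had no read in WT shEmpty and 859 in WT shKap1, against 1 without and 157 with the hairpin in DNMT TKO, an interaction of -4.44 that was not called (adjusted p = 0.482). Of 15 integrants fitted near named genes, 13 had an interaction of the same sign as the gene and 5 were called. The genes were mostly named for their interaction, so agreement in sign is no independent result. The share called over all integrants was not tabulated. All 5 called integrants had the sign of the gene and lie on its strand, where an integrant may share reads with the gene. The 5 were RMER15 at Gm13230 (-1.86, adjusted p = 4.34e-15), RLTR44-int at Tex13 (3.09, 0.00264), MERVL-int at AA792892 (-1.93, 0.0322) and at Iqcf1 (-1.39, 0.0427), whose gene was not called, and the RLTR4 provirus at Zfp42 described below. Among those not called, the IAPEz integrant at BC016423 had an interaction of -0.20 (adjusted p = 0.896) beside -2.12 for the gene, and the RMER19A fragment at Creg2 1.74 (adjusted p = 0.608) beside -3.91. Both lie on the strand opposite to the gene.

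Airn, the long noncoding RNA of the Igf2r locus, starts within a KAP1 region with 8 copies of TGCCGC. It was at 0, 0.0356 and 0 CPM and 0.629, 0.520 and 0.586 CPM in WT, a ratio of 42.7 with a counting interval of 7.18 to 1735.2 since WT shEmpty held 1 read, and at 0.0508, 0.173 and 0.154 CPM and 0.144, 0.329 and 0.445 CPM in DNMT TKO (-3.74 ± 1.01, adjusted p = 0.0149). The call was lost without WT shEmpty 3 (-3.22, adjusted p = 0.0516), without DNMT TKO shEmpty 2 (-3.46, 0.0541) and with the dose (adjusted p = 0.117), and the value was -5.54 without WT shEmpty 2.

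Magel2, a ubiquitin ligase regulator of the Prader-Willi region, rose in both lines, from 0.167, 0.0356 and 0.248 CPM to 4.77, 3.38 and 3.68 CPM in WT and from 0.762, 0.518 and 0.540 CPM to 3.17, 3.53 and 3.19 CPM in DNMT TKO (-2.22 ± 0.50, adjusted p = 0.00413), and was not called with the dose (adjusted p = 0.519). Without WT shEmpty 3 its value was -2.94. The zinc finger gene Peg3 (-1.1), the Polycomb-related Sfmbt2 (-1.24) and, in the other direction, the lipid flippase Atp10a (1.14) were also called. Igf2, the embryonic growth factor, rose from 5.83, 10.6 and 12.4 CPM to 91.3, 79.3 and 67.5 CPM in WT and from 1.37, 1.00 and 1.35 CPM to 39.4, 25.3 and 25.3 CPM in DNMT TKO (1.59 ± 0.40, adjusted p = 0.0153). The Igf2 call was lost without DNMT TKO shEmpty 2 (1.44, adjusted p = 0.0593) and with the replicate block (adjusted p = 0.0651). Osbpl5, an oxysterol-binding protein, had an interaction of -1.44 ± 0.45, which was lost in 6 of 12 omissions of 1 library (adjusted p up to 0.115) and with the dose (adjusted p = 0.0655). Kcnq1, a potassium channel gene, had no read in DNMT TKO and was not called.

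Germline genes, many of them silenced by promoter methylation, were called almost always on the higher side. Of 39 tested, 7 were higher (17.9%, against 4.66% of all tested genes) and none lower (against 2.48%), with a median of 0.59. Of 32 X-linked germline genes 9 were higher (28.1%) and 1 was lower (3.12%), with a median of 0.90. In the X-linked list 8 genes fell in WT and 1 in DNMT TKO, while 3 rose in each line. Its median log2 changes were -0.71 in WT and 0.05 in DNMT TKO, with a median basal difference of 2.99. Higher members included Xlr3a, Xlr3c, Xlr4b, Xlr4c and Xlr5c, so the share rests in large part on 1 gene family. Of these, Xlr3c was not called with the dose (0.61, adjusted p = 0.152). Brdt, a testis bromodomain protein, was at 0.889, 0.783 and 1.27 CPM and 1.42, 2.30 and 1.97 CPM in WT and went from 0.457, 0.414 and 0.617 CPM to 14, 14.5 and 10.9 CPM in DNMT TKO (3.76 ± 0.38, adjusted p = 1.98e-06). The DNMT TKO shKap1 libraries of Brdt lay above the other 9. Tex101, a sperm maturation glycoprotein, went from 0.457, 0.863 and 0.540 CPM to 6.68, 6.21 and 4.97 CPM in DNMT TKO and was at 0.333, 0.285 and 0.212 CPM and 0.419, 0.390 and 0.693 CPM in WT (2.35 ± 0.50, adjusted p = 0.00268).

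In another member the fall was deeper in WT. Spata22, a meiotic recombination protein, had 128 reads in WT shEmpty and 2 in WT shKap1, a ratio of 0.0191 with a counting interval of 0.00229 to 0.0703, and went from 2.54, 1.52 and 1.20 CPM to 0.240, 0.423 and 0.408 CPM in DNMT TKO (3.25 ± 0.77), a call lost with the dose (adjusted p = 0.338). Tex15 (1.26), Sycp3 (1.11), Gtsf1 (1.38) and Tex19.1 (1.20), which act in meiosis or in transposon control in the germline, made up the rest of the called germline genes, and Sycp3 and Gtsf1 were not called with the dose (adjusted p = 0.106 and 0.263).

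On the X chromosome, Tex13 was at 5.39, 19.2 and 19.11 CPM and 5.87, 14.9 and 16.8 CPM in WT and went from 2.74, 9.05 and 7.33 CPM to 47.3, 55.2 and 49.0 CPM in DNMT TKO (3.2 ± 0.70, adjusted p = 0.00860). Xlr5c and Xlr4b, from a family of near-identical lymphoid genes whose reads may be shared, had interactions of 4.22 ± 0.85 and 1.98 ± 0.29. Xlr5c had 39 reads in WT shEmpty and 1 in WT shKap1, a ratio of 0.0313 with an interval of 0.000773 to 0.185, and its interaction ran from 3.63 without WT shKap1 2 to 6.23 without WT shKap1 3. Of 18 tested Rhox homeobox genes, Rhox1 was higher (1.83 ± 0.46) and Rhox9 lower (-2.42 ± 0.51). At 1 call each way, these shares of 5.56% say little beside the 4.66% higher and 2.48% lower of all tested genes (list median 1.28). The summed level of the Rhox list was 2.00 to 4.14 CPM in WT shEmpty and 12.8 to 18.5 CPM in DNMT TKO shEmpty, and 3.51 to 4.64 CPM and 20.7 to 30.1 CPM with the hairpin.

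Genes of the 2-cell embryo rose with the knockdown in both lines. Of 27 tested, 24 rose in WT and 23 in DNMT TKO, against 10.8% and 10.1% of all tested genes, with median log2 changes of 2.99 and 2.74, and Dub1 (lower) and Zfp750 (higher) were the members called for the interaction, 3.70% in each direction and near the shares of all genes. Dub1, a deubiquitinase from a family of near copies, went from 2.94, 3.45 and 3.72 CPM to 23.5, 18.7 and 18.6 CPM in WT and was at 1.37, 4.59 and 4.40 CPM and 2.74, 4.89 and 4.04 CPM in DNMT TKO (-2.44 ± 0.44, adjusted p = 0.00152). The transcription factor Zfp750 had log2 changes of -0.92 in WT and 1.09 in DNMT TKO (2.02 ± 0.37). Dux, the activator of the 2-cell programme, rose from 0.0555, 0.320 and 0.389 CPM to 2.62, 4.5 and 5.60 CPM in WT and from 0.0508, 0.138 and 0.154 CPM to 3.31, 5.55 and 4.41 CPM in DNMT TKO, and its interaction of 1.24 ± 0.71 was not called (adjusted p = 0.264).

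Naive pluripotency genes were called mostly on the higher side. Of 22 tested, 7 were higher (31.8%, against 4.66% of all tested genes) and 1 was lower (4.55%, against 2.48%), with a median of 0.57, while none of 12 core and formative genes was called (median 0.27). In the naive list 10 genes fell and none rose in WT, while 5 fell and 1 rose in DNMT TKO. Its median log2 changes were -0.81 in WT and -0.52 in DNMT TKO, so a higher interaction in this list does not by itself mean a rise. Pramel7, which promotes loss of DNA methylation through UHRF1, went from 5.72, 15 and 13.7 CPM to 0.105, 0.217 and 0.160 CPM in WT and from 17.1, 22.6 and 24.0 CPM to 8.93, 10.3 and 10.1 CPM in DNMT TKO (4.98 ± 0.61, adjusted p = 7.22e-05). Its paralog Pramel6, with which it may share reads, went from 7.39, 22.3 and 20.9 CPM to 0.262, 0.390 and 0.213 CPM and from 52.0, 66.0 and 70.3 CPM to 21.8, 34.7 and 25.2 CPM (4.63 ± 0.73). Both genes fell in both lines, and the DNMT TKO shKap1 libraries were above the WT shKap1 libraries without overlap.

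Tcl1, a coactivator of the kinase AKT that aids self-renewal, went from 74.1, 49.5 and 49.4 CPM to 3.30, 2.21 and 1.92 CPM in WT and from 109, 113 and 111 CPM to 37.3, 41.2 and 49.1 CPM in DNMT TKO (3.16 ± 0.26, adjusted p = 1.39e-06). The transcription factors Prdm14 (2.26), Nr0b1 (1.92), Tbx3 (1.37) and Klf5 (1.09) were the other higher members, of which Tbx3 (0.97) and Klf5 (0.79) fell under 2-fold with the dose. Zfp42, known as Rex1, was the exception, at 128, 130.5 and 129.7 CPM and 91.6, 102 and 109 CPM in WT and at 665, 648 and 650.3 CPM and 195, 233 and 255 CPM in DNMT TKO (-1.17 ± 0.11, adjusted p = 8.4e-07). An RLTR4 provirus 4722 bases before Zfp42 on the same strand had 26 reads in WT shEmpty and 241 in WT shKap1, against 16 without and 23 with the hairpin in DNMT TKO (interaction -2.86, adjusted p = 0.000294).

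Markers of other cell types moved in part. Of 16 trophoblast genes 3 were lower (18.8%, against 2.48% of all tested genes) and none higher (median -0.66), and their summed level went from 302.1 to 432.7 CPM in WT shEmpty to 1206 to 2704 CPM in WT shKap1, against 84.9 to 105.7 CPM and 93.8 to 125.1 CPM in DNMT TKO. Peg10, described above, made up most of that sum in WT. Cdx2, a transcription factor of trophectoderm, was at 1.17, 1.67 and 1.63 CPM and 1.47, 1.47 and 1.28 CPM in WT and at 6.50, 5.52 and 5.48 CPM and 1.15, 1.08 and 0.927 CPM in DNMT TKO (-2.37 ± 0.30, adjusted p = 2.32e-05), so it fell in DNMT TKO alone. The keratin gene Krt18 had an interaction of -1.43 ± 0.38.

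Of 21 mesoderm and endoderm genes 4 were higher (19.05%) and 1 was lower (4.76%), against 4.66% and 2.48% of all tested genes (median 0.49). Hnf4a, a nuclear receptor of endoderm, went from 1.11, 2.35 and 2.44 CPM to 0, 0.130 and 0.0533 CPM in WT and from 2.89, 2.35 and 2.51 CPM to 1.01, 0.988 and 0.927 CPM in DNMT TKO (3.44 ± 0.65), a call lost with the dose (adjusted p = 0.0821), with a value of 4.55 without WT shKap1 2. Dab2 fell in WT from 4.28, 6.12 and 7.32 CPM to 2.04, 1.26 and 1.71 CPM and rose in DNMT TKO from 1.57, 1.17 and 0.964 CPM to 4.47, 2.02 and 1.82 CPM (3.01 ± 0.45, adjusted p = 0.000136). The laminin gene Lama1 (1.35) was also higher, though not with the dose (adjusted p = 0.121), and the mesoderm factor T was lower (-1.25). Gsc, the goosecoid homeobox gene, had an interaction of 1.40 ± 0.43, lost in 7 of 12 omissions of 1 library (adjusted p up to 0.107), with limma-voom (adjusted p = 0.0782) and with the dose (adjusted p = 0.486). The list summed to 208.1 to 262.4 CPM in WT shEmpty and 135.9 to 141.1 CPM in WT shKap1, and went from 189.7 to 224.7 CPM down to 100.9 to 112.0 CPM in DNMT TKO.

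Of 8 neural genes, the neuronal transcription factor Neurod1 was higher (2.06 ± 0.55) and the neural filament Nes was lower (-1.08 ± 0.15). At 1 call each way, these shares of 12.5% say little beside the 4.66% higher and 2.48% lower of all tested genes (list median 0.60). Neurod1 lost its call without DNMT TKO shKap1 3 (1.82, adjusted p = 0.0597), and Nes was under 2-fold without WT shEmpty 1 (-0.97) and with the dose (-0.93). Of 8 fibroblast markers only Col1a1, a type I collagen chain, was called, at 1.89, 2.85 and 2.51 CPM and 0.577, 1.21 and 1.17 CPM in WT and 1.98, 2.83 and 3.28 CPM and 5.14, 6.35 and 5.79 CPM in DNMT TKO (2.37 ± 0.34, adjusted p = 8.71e-05). This single call made 12.5% of the list higher, beside 4.66% of all tested genes, and the list median was 0.71. The fibroblast list summed to 8.94 to 16.7 CPM in WT shEmpty and 10.0 to 17.5 CPM in DNMT TKO shEmpty, which overlapped, and to 6.71 to 11.4 CPM in WT shKap1 and 12.5 to 16.4 CPM in DNMT TKO shKap1, which did not. What part such cells had in the results was not tested.

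Targets of p53, which halts the cycle and starts apoptosis after damage, were called on the higher side. Of 24 tested, 4 were higher (16.7%, against 4.66% of all tested genes) and none lower (median 0.44). Pmaip1, the pro-apoptotic protein NOXA, went from 50.5, 65.1 and 63.6 CPM to 138, 182 and 181 CPM in WT and from 1.57, 2.93 and 4.40 CPM to 81.1, 75.1 and 62.3 CPM in DNMT TKO (3.09 ± 0.30, adjusted p = 1.38e-05). It rose in both lines, from a much lower start in DNMT TKO, and the DNMT TKO shKap1 level overlapped none of the WT shKap1 values. Perp, a membrane effector of p53, was at 19, 21.1 and 20.5 CPM and 9.23, 9.70 and 9.01 CPM in WT and at 12.8, 9.74 and 9.56 CPM and 18.3, 13.7 and 14.3 CPM in DNMT TKO (1.65 ± 0.18, adjusted p = 5e-06). Tap1, a peptide transporter for antigen presentation, had log2 changes of 1.17 and 2.60 (1.43 ± 0.25), and the stress cytokine Gdf15 had an interaction of 1.02, not called with the dose (adjusted p = 0.239).

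Of 24 genes of the interferon response and nucleic acid sensing, 3 were higher (12.5%, against 4.66% of all tested genes) and none lower (median 0.29). Oasl1, a regulator of interferon production, was at 1.28, 2.99 and 2.69 CPM and 0.629, 0.606 and 0.586 CPM in WT and at 2.03, 3.04 and 2.31 CPM and 3.55, 3.15 and 3.63 CPM in DNMT TKO (2.43 ± 0.40, adjusted p = 0.000323). Oas1a, a sensor of double-stranded RNA, fell in both lines (-3.63 and -1.79, interaction 1.84 ± 0.31) and was not called with the dose (adjusted p = 0.365). Isg15, a ubiquitin-like modifier, rose in both lines with an interaction of 2.16 ± 0.71, which was lost in 9 of 12 omissions of 1 library (adjusted p up to 0.175), with DESeq2 (0.0749) and in a fit of the 12 libraries alone (0.0570), and was 3.04 without DNMT TKO shEmpty 3. The sum of this list was 411.2 to 426.3 CPM in WT shEmpty and 382.1 to 397.7 CPM in WT shKap1, against 378.4 to 386.9 CPM and 362.2 to 373.2 CPM in DNMT TKO.

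Of 20 cell cycle genes only Ccnd3, cyclin D3, was called, at 176, 165 and 176 CPM and 69.6, 62.5 and 58.7 CPM in WT and at 163, 185 and 175 CPM and 132, 153 and 173 CPM in DNMT TKO (1.24 ± 0.12, adjusted p = 9.6e-07). Of 14 stress response genes only Jun, a subunit of the AP-1 factor, was called, rising in both lines (2.15 in WT and 1.09 in DNMT TKO, interaction -1.06 ± 0.14) and not called with the dose (adjusted p = 0.187). Of 26 genes of Nodal and BMP signalling only Inhbb, an activin subunit, was called (1.5 ± 0.27). No gene among 24 mitochondrial transcripts was called (median -0.01). At 1 call each, the shares of the cell cycle (5.0%), stress (7.14%) and Nodal and BMP lists (3.85%) say little beside the 4.66% higher and 2.48% lower of all tested genes.

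Of 17 matrix metalloproteinase genes 3 were higher (17.6%) and 2 lower (11.8%), against 4.66% and 2.48% of all tested genes (median 0.12). Mmp28 was at 2.61, 5.02 and 5.91 CPM and 4.14, 3.94 and 4.00 CPM in WT and rose from 1.57, 2.38 and 2.20 CPM to 5.81, 5.31 and 7.79 CPM in DNMT TKO (1.8 ± 0.34, adjusted p = 0.00116). The interactions of Mmp25 (1.24) and Mmp9 (-1.60) were lost in 10 and 7 of 12 omissions of 1 library, with adjusted p up to 0.148 and 0.0901. Both were also lost with DESeq2 (adjusted p = 0.0701 and 0.0712) and in a fit of the 12 libraries alone (0.0691 and 0.0524), and Mmp25 with RLE scaling (0.0532), the 1-read filter (0.0696) and limma-voom (0.0680).

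Lists of genes that act on chromatin held at most 2 called genes each, beside the 7.14% of all tested genes. Of 17 genes for H3K9 methylation only Trim28 itself was called (5.88%), and of 26 Polycomb genes none (median 0.02). Of 18 genes for DNA methylation and demethylation, Tet3, a 5-methylcytosine dioxygenase, was lower, at 10.7, 15.2 and 15.9 CPM and 53.3, 46.6 and 47.2 CPM in WT and 19.09, 25.1 and 23.6 CPM and 20.9, 26.7 and 26.7 CPM in DNMT TKO (-1.67 ± 0.20, adjusted p = 1.26e-05). The methyl-CpG-binding protein gene Mbd1 was lower as well, with log2 changes of 1.49 and 0.30 (-1.19 ± 0.13), and fell under 2-fold with the dose (-0.96). Tet3 and Mbd1 made 11.1% of that list lower, against 2.48% of all tested genes, a share that rests on 2 calls.

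None of 15 KZFP genes with known targets was called (median 0.07). Of 336 tested genes named Zfp with a number, 6 (1.79%) were higher and 10 (2.98%) lower, against 4.66% and 2.48% of all tested genes (median -0.08). They included Zfp608, a zinc finger protein that rose from 0.278, 0.142 and 0.142 CPM to 5.08, 5.33 and 5.92 CPM in WT and from 0.203, 0.173 and 0.308 CPM to 0.817, 0.799 and 0.779 CPM in DNMT TKO (-3.13 ± 0.47, adjusted p = 0.000140). Zfp541, a testis chromatin protein, and Zfp703, a transcriptional corepressor, had interactions of -2.95 ± 0.74 and -2.51 ± 0.36, and that of Zfp541 was -4.45 without WT shEmpty 1 and -2.28 without WT shEmpty 3.

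Of 37 Hox genes, which pattern the body axis, 2 (5.41%) were higher and 3 (8.11%) lower, against 4.66% and 2.48% of all tested genes, and their median was -0.79. Hoxb2 went from 0, 0.0712 and 0.0708 CPM to 2.36, 5.41 and 6.82 CPM in WT and from 0.0508, 0.414 and 0.501 CPM to 0.480, 2.16 and 1.11 CPM in DNMT TKO (-4.52 ± 1.17, adjusted p = 0.0141). The call was lost without DNMT TKO shEmpty 2 (-4.34, adjusted p = 0.0502) or 3 (-4.13, 0.0588) and with the dose (adjusted p = 0.0807), and the value was -5.17 without DNMT TKO shKap1 2. Hoxb4 was at 0.500, 0.889 and 1.49 CPM and 2.10, 4.68 and 5.76 CPM in WT and at 1.73, 3.00 and 2.47 CPM and 1.59, 3.34 and 2.26 CPM in DNMT TKO (-2.08 ± 0.53), and Hoxd3 (-2.01) was lost in 7 of 12 omissions of 1 library, with adjusted p up to 0.106. Of 8 clustered protocadherin genes Pcdha11 alone was called (1.34 ± 0.41), and this was lost in 5 of 12 omissions (adjusted p up to 0.123), with limma-voom (adjusted p = 0.0957), in a fit of the 12 libraries alone (0.0561) and with the replicate block (0.0524). At 1 call, its share of 12.5% says little beside the 4.66% of all tested genes. The list median was -1.01, in the other direction.

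**Figure D4:**
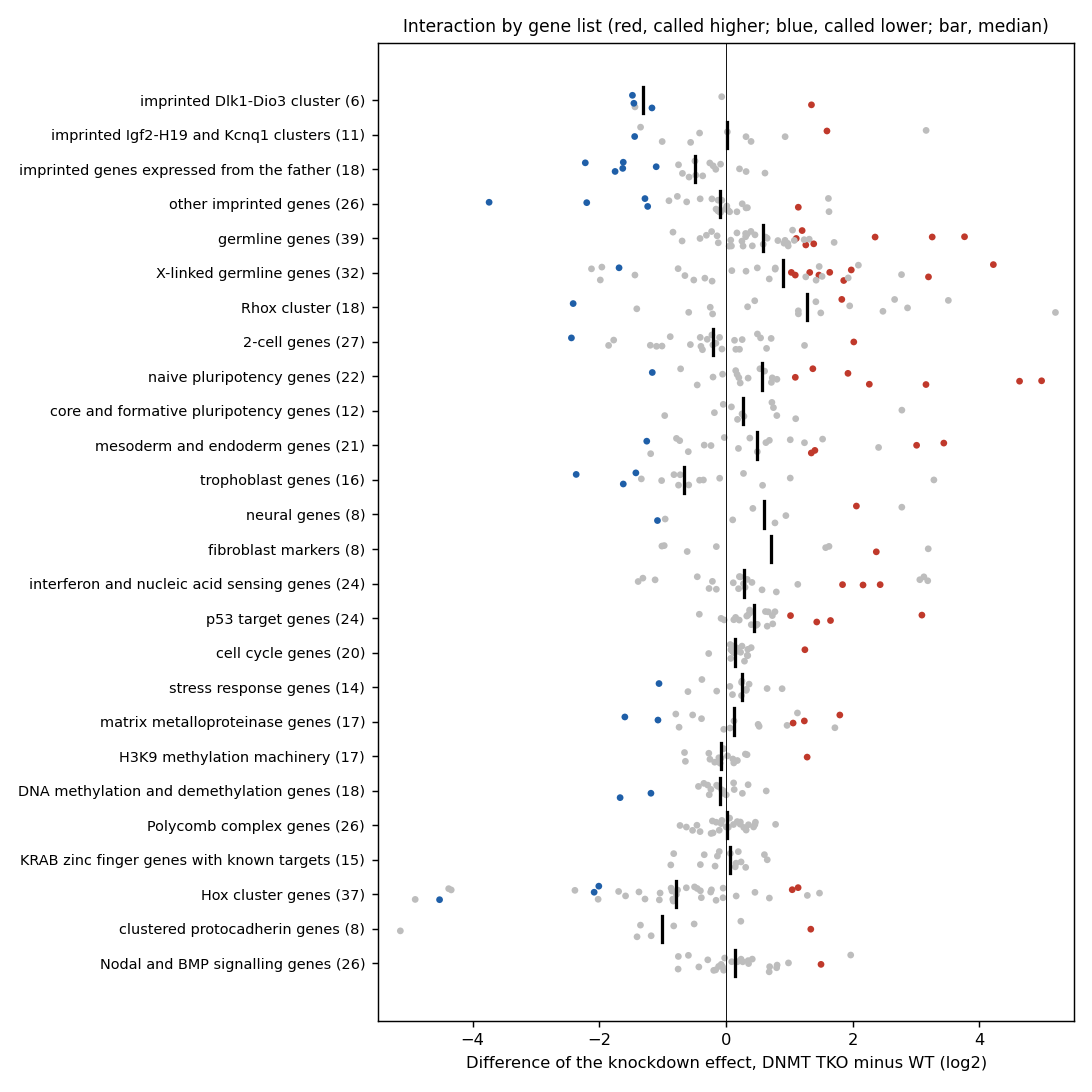
Interaction (log2, DNMT TKO minus WT knockdown effect) of each tested member of each gene list, with called members in colour and a bar at the list median; values beyond 5.2 in either direction are drawn at the edge. List medians run from -1.30 for the Dlk1-Dio3 cluster to 1.28 for the Rhox cluster, against 0.04 over all tested genes.

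Among 5 genes chosen by the study for discussion, and so no independent list, Meg3 was lower and none was higher. The interaction of Lrrn4, a leucine-rich repeat protein near a MERVL element, was 0.15 ± 0.26 (adjusted p = 0.760). Iqcf1 had 3 reads in WT shEmpty and 10 in WT shKap1 and was not called.

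The starts of differing genes were then compared with deposited ChIP-seq regions, as shares with exact 95% intervals that cover counting error only. The paper describes no such map for DNMT TKO cells, so whether the regions hold in that line was not tested. A KAP1 region lay within 1 kb of the start of 4.40% of all tested genes, of 2.75% of the higher genes (1.8 to 4.0) and of 6.55% of the lower genes (4.55 to 9.07). For H3K9me3 regions that depend on KAP1 the shares were 1.02% of all genes, 0.317% of the higher (0.0654 to 0.924) and 3.57% of the lower genes (2.13 to 5.59). They were 4.28% of the 304 genes that rose in WT alone, and 0 of the 427 genes that fell in WT alone, with an upper bound of 0.860%. The 3 higher genes with this mark all rose in DNMT TKO alone, where they made 1.16% of 258 (0.240 to 3.36), close to the share of all genes.

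H3K27me3, the Polycomb mark, was more frequent on both sides, with 15.9% of all genes, 30.2% of the higher (27.3 to 33.3) and 34.1% of the lower genes (30.0 to 38.4). H3K4me3, the mark of active starts, was found at 69.3%, 64.4% and 64.9%. An IAPEz integrant lay within 10 kb of the start for 1.51% of all genes, 0.634% of the higher (0.233 to 1.38) and 3.57% of the lower genes (2.13 to 5.59). For ETnERV the shares were 0.876%, 0.846% and 1.98%, and among the higher genes 7 of the 258 that rose in DNMT TKO alone (2.71%, 1.1 to 5.51) and 0 of the 427 that fell in WT alone (upper bound 0.860%) had one. For the related MMETn elements these shares were 1.94% (0.632 to 4.46) and 0, against 0.389% of all genes. Calls were most frequent among genes of middling depth, at 13.8% of genes with 100 to under 1000 reads over the 12 libraries, against 2.68% of those with fewer and 2.21% of those with 10000 or more, and these shares were not matched for depth.

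**Figure D5:**
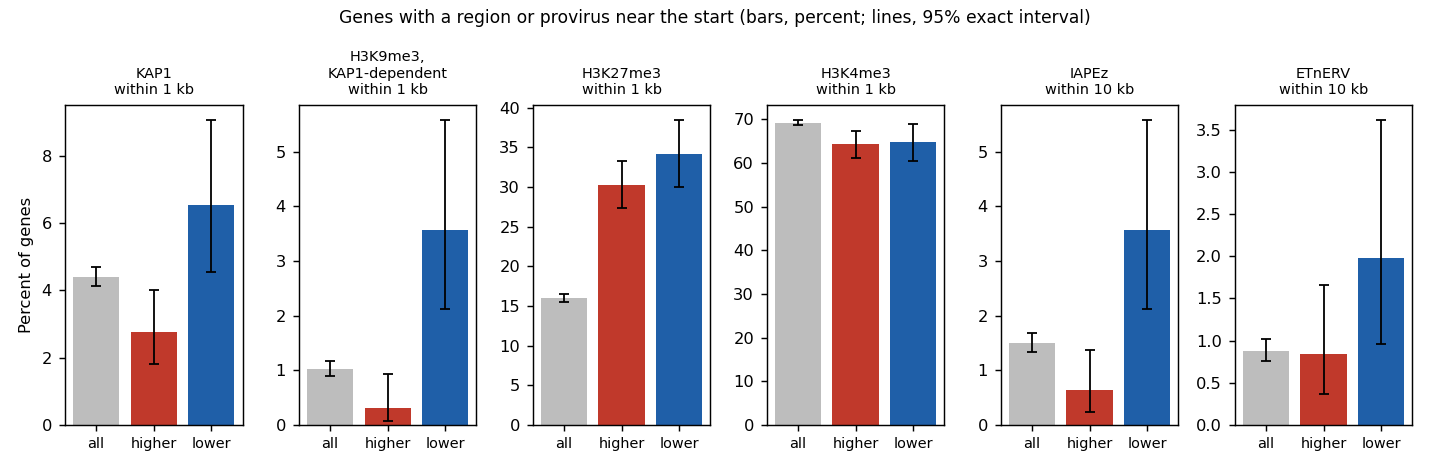
Percent of all tested genes, of the 946 higher and of the 504 lower genes with a deposited region within 1 kb of the gene start or an ERV integrant within 10 kb, with bars for the percent and error bars for the exact 95% interval. KAP1-dependent H3K9me3 reaches 3.57% of the lower and 0.317% of the higher genes, and H3K27me3 30.2% of the higher and 34.1% of the lower genes, against 15.9% of all genes.

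In the 250 bases before the start, the median number of CpG sites was 11 over 20320 promoters, 8 for higher and 9 for lower genes. The letters TGCCGC, searched on both strands, were present in 11.5% of all, 10.9% of higher and 12.7% of lower promoters. By shape they were present for 15.1% of genes that rose in WT alone (46 of 304). The shares were 10.3% for genes that fell in WT alone and 11.2% for those that rose in DNMT TKO alone. No interval was computed for these shares, and whether they differ from that of all genes was not tested. CACGTG, the E-box letters, were present in 7.02%, 7.61% and 6.94%. Of the 3 promoters printed above, that of Brdt held both motifs.

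Called genes also stood next to each other in places. In 19 stretches, 3 or more tested neighbours in a row were called in one direction. The following were picked after their values were seen. They are the CD3 chain genes Cd3g, Cd3d and Cd3e on chromosome 9 (interactions of 1.91 to 2.57), the collagen genes Col6a6, Col6a5 and Col6a4 (3.04 to 4.66) and, on the lower side, the class II histocompatibility genes H2-Ab1, H2-Aa and H2-Eb1 on chromosome 17 (-3.01 to -2.71). By chromosome the median interaction ran from -0.04 on chromosome 13 to 0.12 on chromosome 11, where the basal difference between the lines had a median of 0.29. Chromosome 8 had a median interaction of 0.08 with a basal median of -0.18, and chromosome 6 had 0.002 with -0.29.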

How the data were processed

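RNA-seq libraries of WT and DNMT TKO ES cells with shEmpty or shKap1 were compared, 3 per group, and 4 TET TKO libraries entered the fit for its estimate of the spread. The authors deposited raw read counts per gene (37991 genes) and per repeat integrant, mapped to mm9. Per the paper and the submitters' processing notes, reads were aligned with HISAT2 (2.0.1) and counted with featureCounts (1.5.1). The header of the count table names featureCounts 1.5.0-p1, stranded counting, a mapping quality of at least 10 and an alignment file name typical of another aligner, so the aligner is uncertain. Counting by strand separates antisense genes, while near-identical paralogs can share or lose reads. The ChIP-seq files hold regions with peak-caller scores deposited by the authors, of which only positions were used. hMeDIP-seq counts were not used.

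Genes reaching a sum of 16 reads over the 16 libraries entered edgeR 4.0.16 (R 4.3.3), with TMM scaling, a 6-group robust quasi-likelihood fit and Benjamini-Hochberg adjustment over 20321 genes. CPM are scaled by TMM. Each SE is the absolute log2 value divided by the square root of the F statistic. It thus restates the test and is unreliable where a group holds few reads. The study used limma-voom, here an alternative (limma 3.58.1), as was DESeq2 1.42.0. The Trim28 dose is each library's log2 Trim28 CPM relative to the shEmpty mean of its line, and its slope difference was multiplied by the mean WT loss. Repeat integrants within 5 kb of named starts with at least 50 reads were fitted with the gene library sizes. The interaction test was also run on simulated data with 200 changed genes, and the outcome is not given here. Libraries held 18108431 to 29257911 reads on genes in the 12 libraries, and intervals cover counting error only.

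The gene lists and members were chosen with earlier results of these data known. Named genes were the 12 largest interactions per direction with at least 300 reads and one sign in all replicate numbers, up to 3 called genes per list, the 3 most read per shape, genes the study discusses and the targeted genes. One gene the study discusses is not reported here. Genes given by their interaction alone are further called list members, added after their values were seen. Gene positions are from the mm9 annotation (19953 of 20321 with identical positions). The p-values measure the spread between the libraries of 1 line per genotype. Alternatives were other scalings, filters, tools, fold thresholds, windows, the replicate block, the dose and each library left out. Tables were read with pandas 2.3.3 and sequences with pysam 0.24.0.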

Additional observations from a re-analysis of the deposited data

Results flagged for a closer look

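The knockdown effect differed between the 2 lines by a test of the difference itself, higher in DNMT TKO for 946 genes and lower for 504. The values below are the interactions (log2, DNMT TKO minus WT knockdown effect) of the named genes that passed this test, grouped by the change within each line.

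Genes that rose in DNMT TKO alone had interactions of 12.00 for D930020E02Rik, 9.83 for Gm14047, 7.00 for Olfml2a, 6.87 for 1700018A04Rik, 3.76 for Brdt, 3.2 for Tex13, 2.57 for Prex2, 2.35 for Tex101 and 2.02 for Zfp750. Further values were 1.8 for Mmp28, 1.48 for Ifitm3, 1.24 for Mmp25 and 1.22 for Sdc4. Genes that rose in both lines and more in DNMT TKO had interactions of 4.66 for Col6a5, 3.09 for Pmaip1, 2.16 for Isg15, 1.59 for Igf2, 1.43 for Tap1 and 1.34 for Pcdha11. Genes that fell in WT and rose in DNMT TKO had interactions of 7.27 for Rassf4, 6.81 for Sh3tc2, 6.21 for 1190002H23Rik, 4.78 for Crhr2, 3.01 for Dab2, 2.46 for Gm514, 2.41 for Serpine2 and 2.37 for Col1a1. Genes that fell in WT alone had interactions of 4.77 for Neb, 4.22 for Xlr5c, 2.43 for Oasl1, 2.06 for Neurod1, 1.98 for Xlr4b, 1.83 for Rhox1, 1.65 for Perp, 1.58 for Spp1 and 1.24 for Ccnd3. Further values were 1.08 for Lamc1 and 1.05 for Myst4. Genes that fell in both lines and less in DNMT TKO had interactions of 4.98 for Pramel7, 4.63 for Pramel6, 3.44 for Hnf4a, 3.25 for Spata22, 3.16 for Tcl1, 1.84 for Oas1a, 1.76 for Cobl, 1.40 for Gsc and 1.35 for Dio3. Further values were 1.28 for Trim28 and 1.1 for Inpp5d. A higher gene that passed the threshold in neither line was Inhbb (1.5).

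Genes that rose in WT alone had interactions of -1.01 for Gm13151, -1.08 for Nes, -1.19 for Mbd1, -1.28 for Pon3, -1.44 for Osbpl5, -1.48 for Meg3, -1.55 for Gm13230, -1.63 for Sgce and -1.67 for Tet3. Further values were -1.75 for Inpp5f, -2.08 for Hoxb4, -2.20 for Asb4, -2.42 for Rhox9, -2.44 for Dub1, -2.51 for Zfp703, -2.95 for Zfp541, -3.74 for Airn and -3.76 for AI593442. They were followed by -4.62 for Gm14443, -4.68 for Dcdc2a, -4.74 for Nlrp9b, -5.19 for AA792892, -6.88 for Khdc1a and -8.60 for Ctsh. Genes that rose in both lines and less in DNMT TKO had interactions of -1.06 for Jun, -1.62 for Peg10, -1.78 for Rpl39l, -2.12 for BC016423, -2.22 for Magel2, -3.13 for Zfp608, -4.02 for Aox3, -4.52 for Hoxb2 and -4.67 for Cyp4a12b. Further values were -4.83 for Crygc. The gene named that rose in WT and fell in DNMT TKO was Creg2 (-3.91). Genes that fell in DNMT TKO alone had interactions of -1.03 for Arrdc3, -1.05 for Fstl1, -1.17 for Zfp42, -1.60 for Mmp9 and -2.37 for Cdx2. Lower genes that passed the threshold in neither line had interactions of -1.02 for Ldha, -1.03 for Klhl22, -1.43 for Krt18, -1.46 for Rian and -2.01 for Hoxd3.

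Rises in DNMT TKO alone, opposite changes and rises in both lines that were larger in DNMT TKO were called again in 252 of 258, 41 of 41 and 31 of 31 cases among the higher genes when the Trim28 level replaced the hairpin label, which by construction enlarges changes in DNMT TKO, so this is no sign of stability. Falls in both lines that were smaller in DNMT TKO (16 of 80 kept) and rises in both that were smaller there (11 of 72 kept) were mostly lost, the direction in which that scaling acts.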

How the results depend on the processing

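The count of higher genes ran from 810 to 1037 and that of lower genes from 449 to 560 over another scaling (RLE 894 and 544, total reads 919 and 513), another filter (at least 1 read 860 and 525, at least 160 reads 827 and 538), another tool (limma-voom 1016 and 560, DESeq2 846 and 537), 12 libraries (810 and 500) or the Trim28 dose (1037 and 449). Without the 2-fold threshold it was 2157 and 1580, and with a 4-fold threshold 388 and 167. Leaving out 1 library gave 779 to 999 higher and 415 to 628 lower genes. Of the 1450 genes, 1193 to 1294 were called again without 1 library and 998 (dose) to 1422 (total reads) under the other settings, and 9 genes changed sign, all with the dose. The interaction of Lrrn4 ran from -0.09 to 0.31 without 1 library, against 0.15, and was negative without DNMT TKO shKap1 2 (-0.093) or DNMT TKO shEmpty 1 (-0.03), while no value was called. Of 95 named genes with a call, 59 were called under every alternative other than the 4-fold threshold, 10 were lost with the dose alone and 26 with at least 1 library left out. The 59 include Trim28, for which the dose, being its own level, was not used as an alternative.

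In a fit of the 12 libraries with the replicate number as a block, 973 genes were higher and 628 lower, against 810 and 500 without it. With the block, 1376 of the 1450 were called again. The block ended the calls of Igf2, Pcdha11 and Peg10, as given above. Deviations from the group mean were correlated between libraries of the same number. All 3 correlations were above 0.1 for WT shEmpty with WT shKap1 (0.118 to 0.274). The same held for WT shEmpty with DNMT TKO shEmpty (0.135 to 0.317). The highest value, 0.33, was in DNMT TKO shEmpty with DNMT TKO shKap1 (0.078 to 0.33). The lowest over all pairs of groups was 0.024, so every correlation was positive. A pairing by number was thus not excluded. The main fit did not use it, and a call lost under the block is only listed as such. The rule of one sign in all replicate numbers, used for the largest interactions, did match libraries by number.

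Within 5 kb of the start, KAP1 was found for 9.03% of all, 7.19% of higher and 13.9% of lower genes, KAP1-dependent H3K9me3 for 3.52%, 2.43% and 8.73%, H3K4me3 for 73.6%, 69.1% and 69.0%, and H3K27me3 for 20.9%, 35.5% and 37.9%. Within 50 kb, the shares of all, higher and lower genes were 7.71%, 7.51% and 11.7% for IAPEz, 3.88%, 3.17% and 6.15% for ETnERV and 23.3%, 24.5% and 24.6% for L1Md_T. For IAPEz, the higher genes were thus below the share of all genes at 10 kb and close to it at 50 kb.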

Other observations

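Other neighbouring genes called in one direction, picked after their values were seen, are given as values. On chromosome 11, Slfn4, Slfn3, AI662270 and Gm11427, in a cluster of Schlafen genes known from lymphoid cells, were higher (1.59 to 4.22), as were Slc13a5, Xaf1 and Fbxo39 (1.49 to 3.87). On chromosome 10, Moxd1, Gm15270, Ctgf and Enpp1 were higher (1.09 to 3.08), while Tnfaip3, Olig3 and Ifngr1 were lower (-3.09 to -1.16). On the X chromosome, Armcx6, Armcx3 and Armcx2 were lower (-2.16 to -1.81). On chromosome 12, Tcl1b2, Tcl1, the naive pluripotency gene described above, and 2810011L19Rik were higher (3.01 to 3.28). Whether neighbours share one cause was not tested.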
